A study of Mus musculus with 27 samples.

Results

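Transcript levels of 8 p53 target genes that act in growth arrest and in feedback on p53 were followed in irradiated and non-irradiated mouse macrophages: Cdkn1a, Ccng1, Mdm2, Ppm1d, Trp53inp1, Zmat3, Btg2 and Sesn2. The genes were taken by symbol from a table of 19069 named genes, and all 8 were present and passed the filter on low values. The 27 libraries came from bone marrow of C57BL/6 mice, in 9 groups of 3. Marrow cells received FLASH protons or standard protons at 5 Gy, or no irradiation; FLASH delivers its dose at an ultra-high rate. After the beam all cells spent 7 days in CSF-1 at 10 ng/ml, which turns marrow precursors into macrophages, and then 2 days in control medium (M0), in LPS at 100 ng/ml (M1) or in IL-4 at 20 ng/ml (M2). The groups were thus FLASH M0, M1 and M2, standard M0, M1 and M2, and non-irradiated M0, M1 and M2. The labels name no genetic change, and they do not say whether the 3 libraries of a group came from separate mice or cultures, so p-values measure only the spread between these libraries.

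p53 is a transcription factor that is held at a low level by the ubiquitin ligase Mdm2 and is stabilised when DNA breaks activate the kinases ATM and CHK2. It then switches on arrest genes, of which Cdkn1a is the best known, together with genes that limit p53 itself, such as Mdm2, Ccng1 and Ppm1d, so that the response is self-limiting. Marrow progenitors are among the cells in which ionising radiation triggers this response most readily.

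For 6 of the 8 genes the RefSeq promoter table (build GRCm38.p6) held an entry; Trp53inp1 and Zmat3 were not among them. Windows of 250 bases before to 50 bases after a gene's start were searched on both strands for the p53 half-site consensus, 10 bases long, and for a full site of 20 bases made of a pair of adjoining half-sites with both C and G core positions kept and at most 2 mismatches. A full site was found in 0.326% of 32851 windows and a perfect half-site in 8.36%. Of the 6 genes, Cdkn1a and Ccng1 held a full site, each with 1 mismatch. The Cdkn1a site lay 51 to 32 bases before the first of its RefSeq starts (chr17:29090729-29090978, plus strand, for the bases shown), and the window of a second start 2790 bases downstream held none. The Ccng1 site lay 195 to 176 bases before its start (chr11:40755287-40755536, minus strand). Mdm2 held a single half-site 186 to 177 bases before its start (chr10:117710759-117711008, minus strand), as did Ppm1d 132 to 123 bases before its start (chr11:85311004-85311253, plus strand). The windows of Btg2 and Sesn2 held no match. These matches describe the letters of the windows and not binding. The 250 bases before the start are shown 5′ to 3′ on the gene's strand for the genes with a match, because they differ in what they hold, with the full site or half-site in capitals.
Cdkn1a: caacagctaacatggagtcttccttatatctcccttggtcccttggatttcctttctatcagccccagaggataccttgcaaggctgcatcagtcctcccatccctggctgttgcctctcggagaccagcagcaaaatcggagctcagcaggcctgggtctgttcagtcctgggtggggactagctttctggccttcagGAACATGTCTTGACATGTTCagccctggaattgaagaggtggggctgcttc
Ccng1: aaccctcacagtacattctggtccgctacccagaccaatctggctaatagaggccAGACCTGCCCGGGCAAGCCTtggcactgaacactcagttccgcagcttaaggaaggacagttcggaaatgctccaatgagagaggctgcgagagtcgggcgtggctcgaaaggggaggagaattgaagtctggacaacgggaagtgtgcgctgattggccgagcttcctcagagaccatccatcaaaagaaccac
Mdm2: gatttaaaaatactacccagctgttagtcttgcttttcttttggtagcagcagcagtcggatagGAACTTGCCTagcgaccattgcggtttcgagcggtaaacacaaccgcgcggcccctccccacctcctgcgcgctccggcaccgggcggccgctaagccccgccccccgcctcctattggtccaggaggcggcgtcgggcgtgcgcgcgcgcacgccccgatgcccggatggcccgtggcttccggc
Ppm1d: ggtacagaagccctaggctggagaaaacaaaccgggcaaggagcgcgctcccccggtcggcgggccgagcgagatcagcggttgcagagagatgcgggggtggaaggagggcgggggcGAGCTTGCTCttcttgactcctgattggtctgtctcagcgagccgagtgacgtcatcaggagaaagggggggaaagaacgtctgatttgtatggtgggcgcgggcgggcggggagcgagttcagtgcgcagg

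Values are TMM-scaled CPM, that is read counts brought to a common library total after the authors' scaling; they are not per length, so levels are compared between libraries and not between genes. Library depth recovered from the table was 20.7 M to 25.8 M reads, and the 3 irradiation arms overlapped in depth. The mitochondrially encoded genes took 0.771% to 1.44% of FLASH, 0.788% to 1.53% of standard and 0.467% to 1.35% of non-irradiated libraries. All 10 macrophage markers reached 1 CPM in every library. Each library was placed on an LPS axis (346 genes) and an IL-4 axis (140 genes), on which 0 is the non-irradiated M0 mean and 1 the non-irradiated M1 or M2 mean. By this measure 22 libraries followed their state label and 5 did not, all 5 being replicate 1 of an irradiated group. IL-4 positions of 0.705 and 0.771 were found for the libraries labelled FLASH M0 replicate 1 and standard M1 replicate 1. LPS positions were 0.838 and 0.843 for those labelled FLASH M2 replicate 1 and standard M2 replicate 1, but 0.039 for the one labelled FLASH M1 replicate 1. All 27 were kept under their labels, and results are also given without these 5.

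Irradiation left 5 of the 8 genes higher and 1 lower, in both beams. Over the mean of the 3 states, Cdkn1a, Ccng1, Mdm2, Trp53inp1 and Zmat3 rose and Btg2 fell after FLASH and after standard irradiation, whereas Ppm1d and Sesn2 were not called (limma, adjusted p under 0.05). Of all 13297 genes tested, 7.72% were called after FLASH (3.26% higher, 4.47% lower) and 7.88% after standard irradiation (3.36% higher, 4.52% lower). The median log2 difference of the 8 genes was 0.71 after FLASH and 0.71 after standard irradiation, against -0.01 over all genes in both. Both beams were compared with the same non-irradiated libraries, so their values are given side by side and do not support each other. Without the 5 libraries at odds with their labels the same 6 genes were called, in the same directions, with 7.46% of genes called higher and 7.03% lower after FLASH, and 8.16% and 9.89% after standard irradiation.

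Markers of other marrow cells were lower in the irradiated arms as well. Of 12 markers of neutrophils and their precursors 10 fell after FLASH and 9 after standard irradiation, and their summed level was 34.7 to 139 CPM in FLASH, 38.7 to 89.8 CPM in standard and 72.9 to 1023 CPM in non-irradiated libraries. Of 7 tested B lineage markers 7 fell after FLASH and 6 after standard irradiation, with sums of 7.52 to 21.5 CPM in FLASH, 6.17 to 23.9 CPM in standard and 33.2 to 149 CPM in non-irradiated libraries. Monocyte markers fell in 4 of 6 cases in each beam, dendritic cell markers in 3 of 6, mast cell and basophil markers in 3 of 4, and erythroid and megakaryocyte markers in 2 of 5. T and NK cell markers fell in 2 of 4 cases after FLASH and 1 of 4 after standard irradiation, and 0 of 5 stromal markers were called. Of 10 macrophage markers 1 rose and 1 fell in each beam, with sums of 13830 to 27700 CPM in FLASH, 14870 to 26630 CPM in standard and 8141 to 28160 CPM in non-irradiated libraries. Among the markers under 0.05 CPM in all 9 libraries of an arm were Fcer1a in FLASH libraries, and Ctsg and Vpreb3 in standard libraries. The part of these cells in the differences of the 8 genes was not tested, and in bulk RNA fewer cells of a type and less RNA per cell cannot be told apart.

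**Figure D1:**
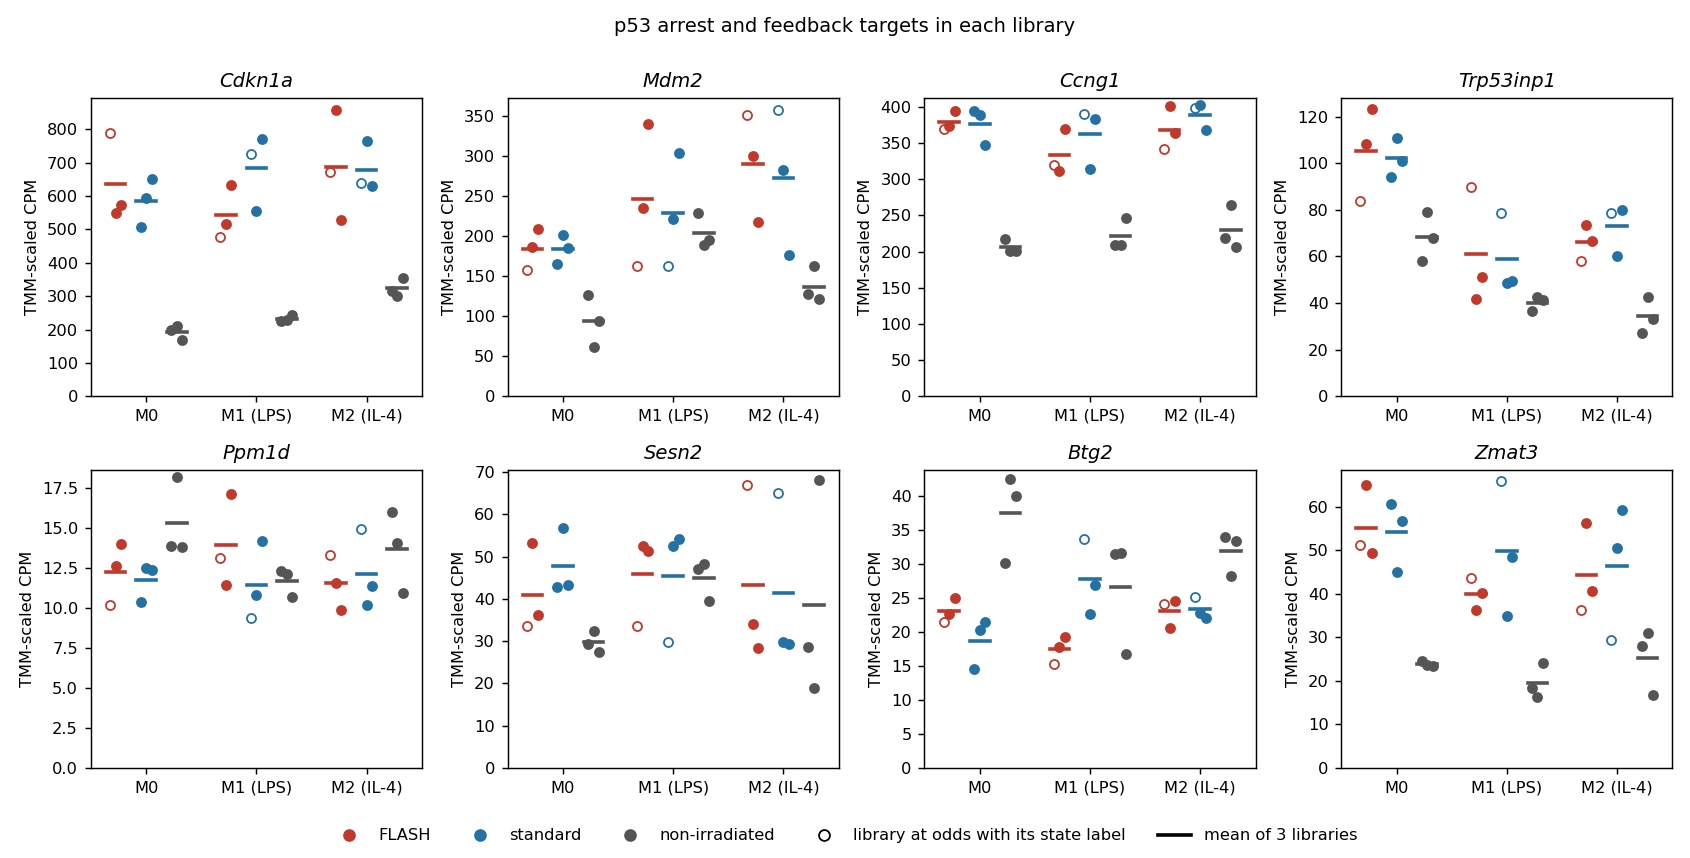
Level of each gene (TMM-scaled CPM, vertical axis from 0) in every library, in the order FLASH, standard and non-irradiated within each state; points are libraries, bars are means of 3 libraries, and open points are the 5 libraries at odds with their state label. Cdkn1a and Ccng1 show every irradiated library above every non-irradiated one.

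Cdkn1a encodes p21, which binds and inhibits cyclin-dependent kinases and so stops the cell cycle. In M0 it stood at 787, 550.2 and 572 CPM in FLASH libraries and 507, 592 and 652 CPM in standard libraries, against 199, 212 and 168 CPM in non-irradiated libraries. In M1 it stood at 478, 517 and 634 CPM in FLASH and 726, 554 and 771 CPM in standard libraries, against 225, 228 and 243 CPM in non-irradiated libraries. In M2 it stood at 672, 858 and 528 CPM in FLASH and 639, 765 and 630.0 CPM in standard libraries, against 317, 301 and 353 CPM in non-irradiated libraries. The 18 irradiated libraries (478 to 858 CPM) lay wholly above the 9 non-irradiated ones (168 to 353 CPM), the 5 at odds with their labels included. Such a complete separation upwards was found for 0.0827% of the genes tested (0.173% downwards), and among the 8 genes for Cdkn1a and Ccng1. Cdkn1a rose 2.51-fold after FLASH (log2 1.33, SE 0.10, limma adjusted p = 3.23e-08) and 2.64-fold after standard irradiation (log2 1.40, SE 0.10, adjusted p = 1.56e-08). Without the 5 libraries the log2 differences were 1.30 and 1.40.

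Ccng1 encodes cyclin G1, a cyclin that brings a phosphatase to Mdm2 and belongs to the feedback arm of the pathway. Its M0 values were 370, 373 and 394 CPM in FLASH and 394, 389 and 347 CPM in standard libraries, against 218, 201 and 201 CPM in non-irradiated libraries. The M1 values were 320, 311 and 370.1 CPM in FLASH and 390.1, 314 and 383 CPM in standard libraries, against 209.8, 209 and 246 CPM in non-irradiated libraries. For M2 they were 341, 401 and 364 CPM in FLASH and 399, 402 and 368 CPM in standard libraries, against 219, 265 and 207 CPM in non-irradiated libraries. Irradiated libraries spanned 311 to 402 CPM and non-irradiated ones 201 to 265 CPM, with a narrow spread inside each group in all 3 states. The rise was 1.64-fold after FLASH (log2 0.72, SE 0.07, limma adjusted p = 3.5e-07) and 1.71-fold after standard irradiation (log2 0.78, SE 0.07, adjusted p = 1.1e-07). Cdkn1a and Ccng1, both with a full p53 site in the window shown for them, were called in every state and beam. With 7 windows of 6 genes searched, and no site in the second Cdkn1a window, this is a description.

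Mdm2, the ligase that marks p53 for degradation, separated irradiated from non-irradiated libraries in M0 and M2 but not in M1. FLASH M0 libraries had 158, 187 and 209.5 CPM and standard M0 libraries 165, 202 and 186 CPM, against 127, 61.5 and 93.8 CPM in non-irradiated M0 libraries. FLASH M1 libraries had 163, 235 and 340.4 CPM and standard M1 libraries 163, 222 and 304 CPM, against 229, 189 and 195 CPM in non-irradiated M1 libraries. FLASH M2 libraries had 352, 300.1 and 218 CPM and standard M2 libraries 358, 283 and 176 CPM, against 128, 163 and 121 CPM in non-irradiated M2 libraries. Irradiated and non-irradiated libraries did not overlap in M0 or in M2, and overlapped in M1, where the lowest value of each beam came from a library at odds with its label. The M1 log2 difference was 0.21 after FLASH and 0.12 after standard irradiation with all libraries, and 0.47 (95% interval -0.09 to 1.03) and 0.35 (-0.21 to 0.91) without those at odds. In M2 the highest value of each beam came from a library at odds. The M2 log2 differences were 1.06 and 0.94 with all libraries, and 0.91 and 0.71 without those at odds. Over the mean of the states Mdm2 rose 1.70-fold after FLASH (log2 0.76, SE 0.17, limma adjusted p = 0.00705) and 1.62-fold after standard irradiation (log2 0.70, SE 0.17, adjusted p = 0.0129).

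Ppm1d encodes the phosphatase WIP1, which removes phosphates from p53 and from the kinases upstream of it, and it was low and did not separate the arms. FLASH libraries had 10.2, 12.6 and 14.0 CPM in M0, 13.1, 11.5 and 17.1 CPM in M1 and 13.3, 11.6 and 9.85 CPM in M2. Standard libraries had 10.4, 12.5 and 12.4 CPM in M0, 9.37, 10.8 and 14.2 CPM in M1 and 14.9, 10.2 and 11.3 CPM in M2. Non-irradiated libraries had 13.8, 18.2 and 13.8 CPM in M0, 12.3, 12.1 and 10.7 CPM in M1 and 16.0, 14.1 and 10.9 CPM in M2. The ranges of the arms overlapped over all states, and among the 6 comparisons of a beam with no irradiation in a state, standard M0 alone lay wholly below its non-irradiated group, as 14.9% of all genes did there. The log2 difference was -0.10 after FLASH (95% interval -0.34 to 0.13, limma adjusted p = 0.662) and -0.19 after standard irradiation (-0.42 to 0.05, adjusted p = 0.346).

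Trp53inp1 encodes a stress protein that promotes p53 phosphorylation and takes part in autophagy. M0 libraries had 83.9, 108 and 123 CPM after FLASH and 94.2, 111 and 101 CPM after standard irradiation, against 57.9, 79.0 and 67.7 CPM without irradiation. M1 libraries had 90.0, 41.8 and 51.4 CPM after FLASH and 78.7, 48.7 and 49.4 CPM after standard irradiation, against 36.6, 42.6 and 41.5 CPM without irradiation. M2 libraries had 58.2, 73.7 and 66.8 CPM after FLASH and 78.8, 60.2 and 79.8 CPM after standard irradiation, against 27.3, 42.7 and 33.2 CPM without irradiation. Irradiated libraries lay above the non-irradiated ones of their state in M0 and M2; in M1 the second FLASH library lay inside the non-irradiated range, and the highest value of each beam came from a library at odds with its label. The M1 log2 difference was 0.52 after FLASH and 0.51 after standard irradiation, and 0.20 and 0.29 without the libraries at odds. Over the mean of the states Trp53inp1 rose 1.62-fold after FLASH (log2 0.70, SE 0.14, limma adjusted p = 0.00255) and 1.66-fold after standard irradiation (log2 0.73, SE 0.14, adjusted p = 0.00158).

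Zmat3 encodes a zinc finger protein that binds RNA and regulates splicing downstream of p53. After FLASH it had 51.1, 65.1 and 49.4 CPM in M0, 43.7, 36.2 and 40.2 CPM in M1 and 36.3, 56.3 and 40.6 CPM in M2. After standard irradiation it had 60.5, 45.0 and 56.7 CPM in M0, 66.0, 34.8 and 48.5 CPM in M1 and 29.3, 50.6 and 59.2 CPM in M2. Without irradiation it had 24.5, 23.6 and 23.3 CPM in M0, 18.4, 16.2 and 24.2 CPM in M1 and 27.9, 31.1 and 16.8 CPM in M2. A single irradiated library, that labelled standard M2 replicate 1 at 29.3 CPM, fell inside the non-irradiated range of 16.2 to 31.1 CPM; without the 5 libraries at odds the remaining 13 irradiated libraries spanned 34.8 to 65.1 CPM with no overlap, as did 0.0902% of all genes upwards and 0.226% downwards. Zmat3 rose 2.02-fold after FLASH (log2 1.01, SE 0.15, limma adjusted p = 0.000163) and 2.14-fold after standard irradiation (log2 1.10, SE 0.15, adjusted p = 6.38e-05).

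Btg2, an antiproliferative factor that recruits an mRNA deadenylase, was the member that moved down. FLASH libraries had 21.4, 22.6 and 25.0 CPM in M0, 15.3, 17.8 and 19.2 CPM in M1 and 24.1, 20.6 and 24.5 CPM in M2. Standard libraries had 14.6, 20.2 and 21.4 CPM in M0, 33.7, 22.6 and 26.9 CPM in M1 and 25.1, 22.8 and 22.02 CPM in M2. Non-irradiated libraries had 30.2, 42.4 and 40.0 CPM in M0, 31.4, 31.6 and 16.7 CPM in M1 and 34.0, 28.2 and 33.4 CPM in M2. Irradiated libraries lay below the non-irradiated ones of their state in M0 and M2 and overlapped them in M1. Btg2 fell by 0.56 on the log2 scale after FLASH (SE 0.12, limma adjusted p = 0.0049) and by 0.44 after standard irradiation (SE 0.12, adjusted p = 0.0231). The call after standard irradiation was lost, with adjusted p of 0.0504 to 0.0591, without any of 5 single libraries: standard M0 replicate 1 (0.0588), standard M1 replicate 2 (0.0526), non-irradiated M0 replicate 3 (0.0504), and non-irradiated M1 replicates 1 (0.0591) and 2 (0.0540). It was also lost in a fit of only the standard and non-irradiated libraries (limma adjusted p = 0.0539). Markers of neutrophils, B cells and monocytes fell in the same arms, and their part in the Btg2 difference was not tested.

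Sesn2, a sestrin that restrains mTORC1 signalling and is induced both by p53 and by the stress factor ATF4, varied widely between libraries of the same group in M2. FLASH libraries had 33.7, 53.1 and 36.2 CPM in M0, 33.5, 52.5 and 51.4 CPM in M1 and 66.9, 34.2 and 28.4 CPM in M2. Standard libraries had 42.9, 56.8 and 43.3 CPM in M0, 29.7, 52.5 and 54.2 CPM in M1 and 65.0, 29.9 and 29.2 CPM in M2. Non-irradiated libraries had 29.4, 32.3 and 27.4 CPM in M0, 47.1, 48.3 and 39.5 CPM in M1 and 28.6, 18.9 and 68.1 CPM in M2. All 6 irradiated M0 libraries lay above the 3 non-irradiated ones, and in M1 and M2 the arms overlapped. The highest M2 values came from the libraries labelled FLASH M2 replicate 1 and standard M2 replicate 1, which are at odds with their labels, and from non-irradiated M2 replicate 3, which is not. The log2 difference over the states was 0.24 after FLASH (95% interval -0.23 to 0.70, limma adjusted p = 0.602) and 0.28 after standard irradiation (-0.19 to 0.75, adjusted p = 0.506).

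**Figure D2:**
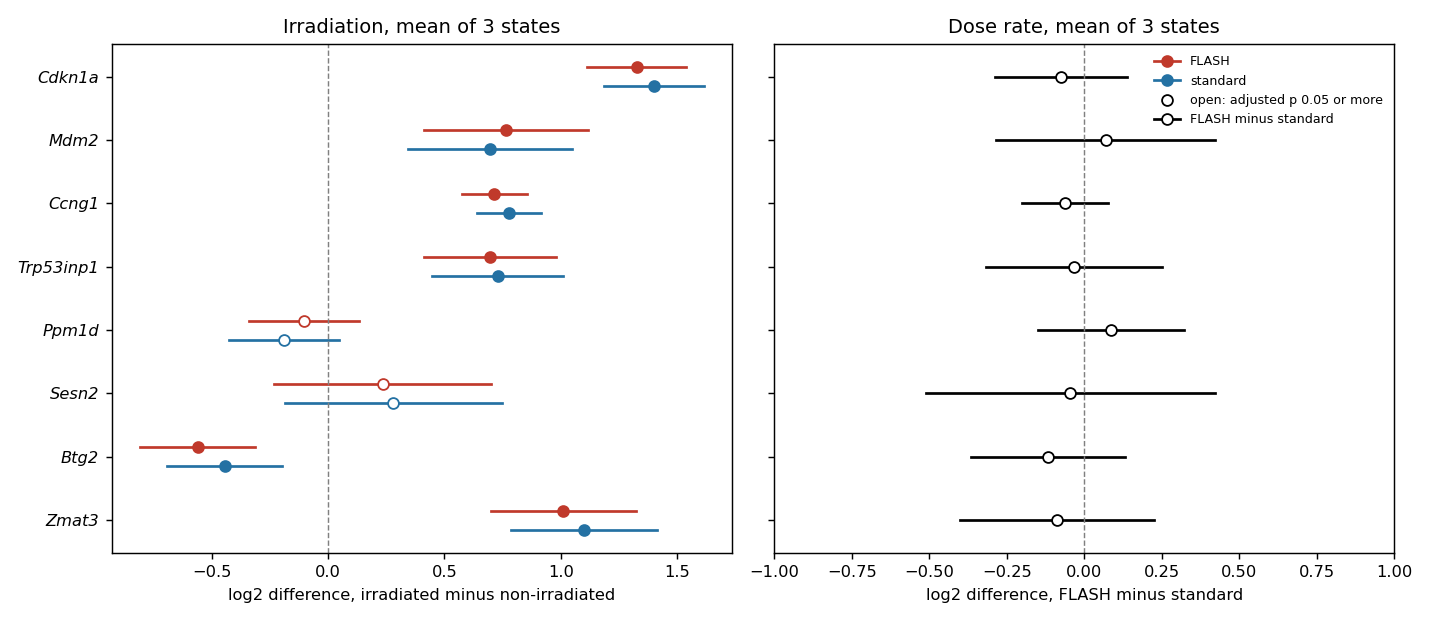
Log2 differences over the mean of the 3 states with 95% intervals from limma; left, FLASH and standard minus non-irradiated, with open points where the adjusted p was 0.05 or more; right, FLASH minus standard. Cdkn1a lies highest at 1.33 and 1.40, Btg2 lies below 0, and all 8 intervals of FLASH minus standard span 0.

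Within single states fewer of the genes passed, with 3 libraries a group. In M0, Cdkn1a (log2 1.71), Ccng1 (0.87) and Zmat3 (1.19) rose after FLASH, where 2.11% of all genes were called, 0.489% higher and 1.62% lower. After standard irradiation the same 3 genes rose in M0 (1.59, 0.86 and 1.16) and Btg2 fell (-0.99), with 2.02% of all genes called, 0.677% higher and 1.35% lower. In M1, Cdkn1a (1.21), Ccng1 (0.59) and Zmat3 (1.03) rose after FLASH, where 2.53% of all genes were called, 0.729% higher and 1.8% lower. After standard irradiation they rose in M1 as well (1.54, 0.71 and 1.29), with 2.6% of all genes called, 0.985% higher and 1.62% lower. In M2, Cdkn1a (1.06) and Ccng1 (0.68) rose after FLASH, where 1.1% of all genes were called, 0.436% higher and 0.662% lower. After standard irradiation Cdkn1a (1.06), Ccng1 (0.76) and Trp53inp1 (1.09) rose in M2, with 1.35% of all genes called, 0.557% higher and 0.797% lower. Mdm2 missed the threshold in each state, with log2 1.02 after FLASH and 1.02 after standard irradiation in M0. Its M1 values were 0.21 and 0.12 (0.47 and 0.35 without the libraries at odds). Its M2 values were 1.06 and 0.94 (0.91 and 0.71 without those libraries). By plain separation of libraries, 6 genes had all 6 irradiated M0 libraries above the 3 non-irradiated ones and Btg2 had them below (7.02% and 8.72% of all genes), 3 genes separated upwards in M1 (6.2%), and 4 genes upwards with Btg2 downwards in M2 (5.1% and 5.81%).

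The state calls of Cdkn1a and Ccng1 held whichever library was left out, and those of the other members did not. Fitted on only the 6 libraries compared, however, the M2 calls of Cdkn1a (limma adjusted p = 0.299 for FLASH and 0.245 for standard irradiation) and Ccng1 (0.353 and 0.314) were lost, as were those of Ccng1 in M1 (0.148 and 0.127). In standard M0 the same kind of fit gained calls for Sesn2 (log2 0.66, limma adjusted p = 0.0339) and Trp53inp1 (0.59, 0.0403). With replicates 2 and 3 alone, Ccng1 in FLASH M1 had an adjusted p of 0.0554. The Zmat3 call after FLASH was lost in M0 without FLASH M0 replicate 2 (adjusted p = 0.0758, limma) or non-irradiated M0 replicate 3 (0.0708), and in M1 without FLASH M1 replicate 1 (0.143), 2 (0.0579) or 3 (0.0844) or non-irradiated M1 replicate 1 (0.137) or 2 (0.161). After standard irradiation it was lost in M0 without standard M0 replicate 1 (0.116) or 3 (0.0834) or non-irradiated M0 replicate 1 (0.0603), 2 (0.0677) or 3 (0.0806), and in M1 without standard M1 replicate 1 (0.0705) or non-irradiated M1 replicate 1 (0.0504) or 2 (0.0557). The Trp53inp1 call in standard M2 was lost without standard M2 replicate 1 (0.104) or 3 (0.0857) or non-irradiated M2 replicate 1 (0.145) or 3 (0.0631), and that of Btg2 in standard M0 without standard M0 replicate 1 (0.1) or non-irradiated M0 replicate 2 (0.0671) or 3 (0.0626). Calls were gained in the same way for Mdm2 in FLASH M0 without non-irradiated M0 replicate 1 (0.0498), and for Zmat3 in standard M2 without standard M2 replicate 1 (0.0484). Btg2 was called lower in FLASH M0 (0.0301) and FLASH M1 (0.0209) without non-irradiated M1 replicate 3. Trp53inp1 in FLASH M2 (0.0525) was called without FLASH M0 replicate 1 (0.0451), FLASH M1 replicate 1 (0.016) or 2 (0.0371) or standard M1 replicate 1 (0.0326), libraries of other groups that enter through the shared spread. With all 5 libraries at odds left out, FLASH M0 had 5 genes higher, with Mdm2 (log2 1.13, adjusted p = 0.019) and Trp53inp1 (0.77, 0.0154) added, and standard M0 had 5 higher and 1 lower. The share of all genes called was then 5.32% in FLASH M0 (2.44% higher) and 7.41% in standard M0 (3.32% higher, 4.1% lower), more than with all libraries. FLASH M2 then had 4 higher, with Trp53inp1 (1.04, 0.00326) and Zmat3 (0.95, 0.034) added, and standard M2 had 4 higher, with Zmat3 (1.14, 0.013) added, where 3.31% (2.12% higher) and 3.45% (1.57% higher) of all genes were called.

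The macrophage state itself moved some of the genes in non-irradiated cells. In M1 against M0, Mdm2 rose (log2 1.17, limma adjusted p = 0.0116) to 229, 189 and 195 CPM in M1 libraries, against 127, 61.5 and 93.8 CPM in M0 libraries, and Trp53inp1 fell by 0.75 (adjusted p = 0.0336). In this comparison 17.4% of all genes were called, 9.87% higher and 7.54% lower. In M2 against M0, Cdkn1a rose (log2 0.75, adjusted p = 0.0126) to 317, 301 and 353 CPM in M2 libraries, against 199, 212 and 168 CPM in M0 libraries, and Trp53inp1 fell by 0.99 (adjusted p = 0.0129), where 9.83% of all genes were called, 4.93% higher and 4.9% lower. The libraries of these genes did not overlap in these comparisons, as was so for 22.8% of all genes upwards and 22.5% downwards in M1 against M0, and for 17.9% and 17.8% in M2 against M0. In M1 against M0 Cdkn1a and Sesn2 also lay wholly higher and Ppm1d wholly lower without being called (adjusted p = 0.298, 0.305 and 0.202). The number of calls in M1 against M0 fell to 0 without non-irradiated M0 replicate 2 and to 1 without any other of the 6 libraries compared, the single call being upward. In M2 against M0 it fell to 1 without non-irradiated M0 replicate 2 or non-irradiated M2 replicate 1 (1 upward) or non-irradiated M0 replicate 3 (1 downward). None of the 5 libraries at odds belongs to these groups, and without them the same 4 calls stood.

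Whether irradiation acted differently on the genes in different states was tested as an interaction, and 0 of the 8 genes were called in any of the 4 interaction tests by limma. Over all genes 0.12% were called for FLASH with M1, 0% for FLASH with M2, 0.0902% for standard with M1 and 0% for standard with M2. At an unadjusted p under 0.05 the counts were 0, 1, 2 and 1 of 8. For Mdm2 the irradiation difference was smaller in M1 than in M0 by 0.81 log2 units for FLASH (difference -0.81, 95% interval -1.67 to 0.05, adjusted p = 0.55) and by 0.90 for standard irradiation (-0.90, -1.76 to -0.03, adjusted p = 0.575). For Cdkn1a the irradiation difference in M2 less that in M0 was -0.65 for FLASH (-1.17 to -0.13, adjusted p = 0.811) and -0.53 for standard irradiation (-1.05 to -0.01, adjusted p = 0.893). The largest interaction was that of Btg2 for standard irradiation with M1 (1.09, 0.48 to 1.69, adjusted p = 0.227). For Mdm2 and Btg2 these intervals leave room for state differences as large as the irradiation differences themselves. Those of Cdkn1a reached -1.17 for FLASH and -1.05 for standard irradiation, against irradiation differences of 1.71 and 1.59 in M0. Without the 5 libraries at odds the Mdm2 values for M1 were -0.66 for FLASH and -0.67 for standard irradiation. The Cdkn1a values for M2 were then -0.49 for FLASH (-1.03 to 0.06) and -0.49 for standard irradiation (-1.01 to 0.03), so that both intervals spanned 0. That of Btg2 for standard irradiation with M1 was 0.94 (0.285 to 1.59). The Trp53inp1 value for FLASH with M1 moved from -0.09 (-0.79 to 0.60) with all libraries to -0.56 (-1.07 to -0.05). For standard irradiation with M1 it moved from -0.07 to -0.30 (-0.78 to 0.18). Again none of the 8 genes was called.

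**Figure D3:**
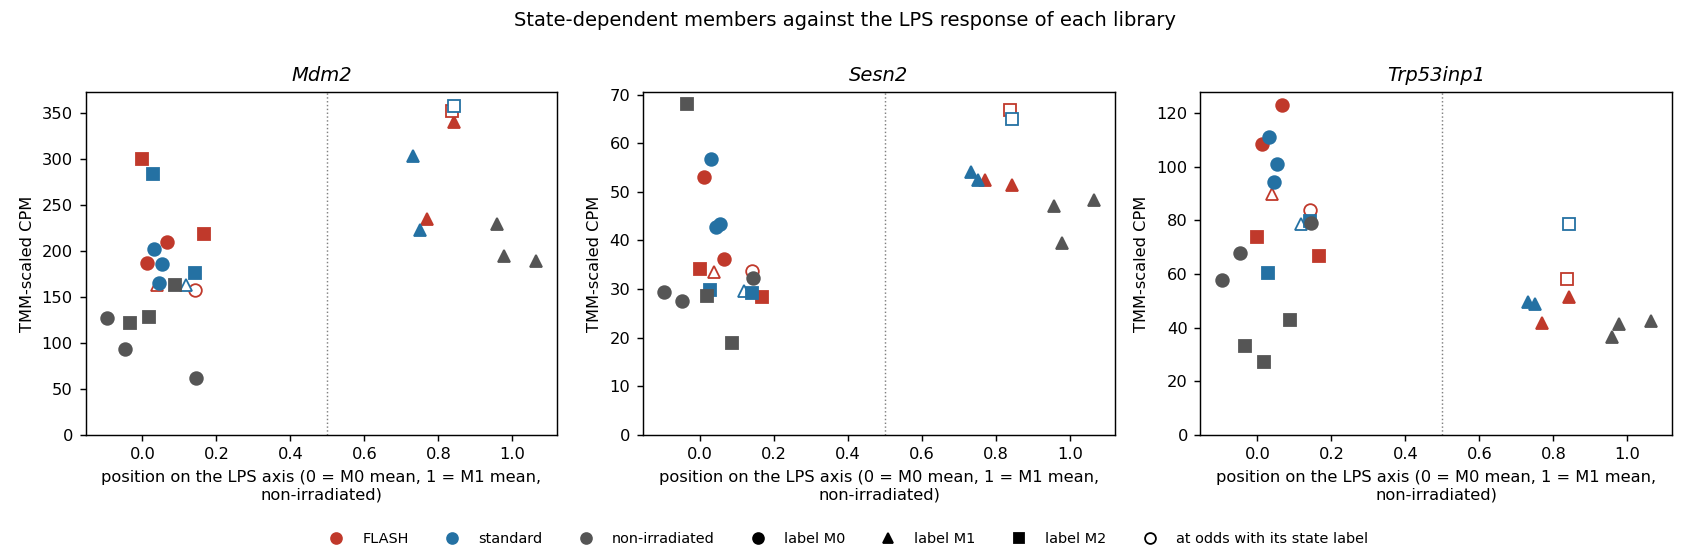
Level of Mdm2, Sesn2 and Trp53inp1 (TMM-scaled CPM, vertical axis) against the position of each library on the LPS axis (horizontal, 0 for the non-irradiated M0 mean and 1 for the non-irradiated M1 mean); colour gives the beam, shape the label and open symbols the 5 libraries at odds. The libraries labelled FLASH M2 replicate 1 and standard M2 replicate 1 lie at 0.838 and 0.843 on this axis, with Mdm2 at 352 and 358 CPM.

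In the 5 libraries at odds, Cdkn1a (478 to 787 CPM) and Ccng1 (320 to 399 CPM) lay above all 9 non-irradiated libraries, while other members did not all do so. Zmat3 lay inside its non-irradiated range in the library labelled standard M2 replicate 1 (29.3 CPM). Btg2 lay inside its own in all but the library labelled FLASH M1 replicate 1, which fell below it at 15.3 CPM. Some or all of the 5 lay inside the non-irradiated ranges of Mdm2, Trp53inp1, Ppm1d and Sesn2 as well. The libraries labelled FLASH M2 replicate 1 and standard M2 replicate 1, placed near LPS-treated cells, had Mdm2 at 352 and 358 CPM and Sesn2 at 66.9 and 65.0 CPM, the highest of their groups. The libraries labelled FLASH M1 replicate 1 and standard M1 replicate 1 were placed away from LPS-treated cells, with unlike IL-4 positions of 0.152 and 0.771. They had Mdm2 at 163 and 163 CPM, the lowest of their groups, and Trp53inp1 at 90.0 and 78.7 CPM, the highest. The library labelled FLASH M0 replicate 1, placed near IL-4-treated cells, had the lowest Trp53inp1 (83.9 CPM) and Mdm2 (158 CPM) of its group and the highest Cdkn1a (787 CPM).

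FLASH and standard protons at the same dose were compared directly, and 0 of the 8 genes were called, over the mean of the states or in any state, as were 0% of all genes (limma). The log2 difference, FLASH minus standard over the mean of the states, lay between -0.12 and 0.09. Its 95% interval was -0.29 to 0.14 for Cdkn1a, -0.28 to 0.42 for Mdm2, -0.20 to 0.08 for Ccng1 and -0.32 to 0.25 for Trp53inp1. For Ppm1d it was -0.15 to 0.32, for Sesn2 -0.51 to 0.42, for Btg2 -0.36 to 0.13 and for Zmat3 -0.40 to 0.22. Ccng1 was the most tightly bounded of the 8 and Sesn2 the least, and for Cdkn1a, Mdm2, Ccng1, Trp53inp1 and Zmat3 the interval stayed below the gene's own irradiation difference in each beam. Within states the intervals were wider, for Cdkn1a -0.26 to 0.48 in M0, -0.70 to 0.04 in M1 and -0.38 to 0.36 in M2, and for Mdm2 -0.61 to 0.61, -0.53 to 0.69 and -0.49 to 0.73. At an unadjusted p under 0.05 the count was 0 over the mean of the states, 0 in M0, 1 in M1 and 0 in M2. That gene was Btg2, at 15.3, 17.8 and 19.2 CPM in FLASH M1 libraries, against 33.7, 22.6 and 26.9 CPM in standard M1 libraries (log2 -0.64, adjusted p = 1). The M1 libraries of the beams did not overlap for Btg2, as was so downwards for 2.77% of all genes. Without the libraries at odds its M1 difference was -0.41 (-0.94 to 0.13).

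In the order of the 9 group means the irradiated groups of Cdkn1a came first and could not be ranked among themselves. FLASH M2 (686 ± 166 CPM), standard M1 (684 ± 114), standard M2 (678 ± 75.4), FLASH M0 (636 ± 131), standard M0 (584 ± 72.7) and FLASH M1 (543 ± 81.2) each overlapped the next in library range (SD, n = 3 each). Non-irradiated M2 (323 ± 26.7), M1 (232 ± 9.93) and M0 (193 ± 22.6) followed, each set apart from its neighbours. Ccng1 showed a single gap, between the 6 irradiated and the 3 non-irradiated groups. Zmat3 had 1 gap between neighbours in this order, FLASH M1 above non-irradiated M2. It did not part all irradiated groups, since standard M2 (lowest library 29.3 CPM) overlapped non-irradiated M2 (highest 31.1 CPM). For Mdm2 non-irradiated M1 (204 ± 21.7 CPM) ranked above FLASH M0 (185 ± 26.0) and standard M0 (184 ± 18.4), with overlap. The single gap between neighbours came below standard M0, yet FLASH M0 (lowest library 158 CPM) overlapped non-irradiated M2 (highest 163 CPM). Trp53inp1 had gaps between neighbours below standard M0 (102 ± 8.46 CPM) and below standard M1 (59.0 ± 17.1). Its FLASH M1 libraries (41.8 to 90.0 CPM) overlapped FLASH M0 above the upper gap and non-irradiated M1 below the lower gap. Btg2 had 1 gap, between FLASH M0 (23.0 ± 1.83 CPM) and standard M0 (18.7 ± 3.67), and Ppm1d and Sesn2 had none. The Btg2 gap, from 21.43 to 21.4 CPM, was narrower than 1 read, and its upper edge was a library at odds with its label.

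Genes around the 8 members were read from lists that, like the members, were chosen with earlier results of these data known. Of 40 other p53 targets 39 were tested, and 8 rose after FLASH and 10 after standard irradiation, with none lower; the list median was 0.17 after FLASH and 0.20 after standard irradiation, against -0.01 over all genes. Phlda3, an inhibitor of Akt, rose by log2 2.02 and 2.11, the spindle protein Psrc1 by 1.09 and 0.94, the death receptor Eda2r by 0.84 and 0.96 and the stress sensor Gadd45a by 0.83 and 0.69, while the kinase Plk3 (0.90) was called after standard irradiation. Of 17 genes for p53 and its regulators 0 were called in either beam, with a median of -0.14 after FLASH and -0.15 after standard irradiation. Trp53 itself had 50.1 ± 8.58 CPM in FLASH and 51.6 ± 6.11 CPM in standard libraries, against 55.9 ± 5.88 CPM in non-irradiated libraries (SD, n = 9 each). Its log2 difference was -0.17 after FLASH (limma adjusted p = 0.263) and -0.12 after standard irradiation (0.455), and the smallest p of the list after standard irradiation was that of the kinase Atm (-0.53, adjusted p = 0.064).

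The cell cycle genes that p21 is known to lower through Rb and the DREAM complex did not pass. Of 26 such genes 0 were called in either beam, with a list median of -0.44 after FLASH and -0.46 after standard irradiation; Cdc20, an activator of the anaphase-promoting complex, had -0.76 after FLASH (limma adjusted p = 0.0968) and the S-phase factor E2f1 0.33 after standard irradiation (0.0946). By state its median was -1.30 in FLASH M0, 0.42 in FLASH M1 and -0.46 in FLASH M2, and -0.95, 0.24 and -0.52 in the standard groups, with 0 genes called in each. In non-irradiated M1 against M0 the list median was already -1.065, with 4 of the 26 genes called lower, as were 7.54% of all genes. Replicate 1 of FLASH M1 and of standard M1 was at odds with its label, and no values without these libraries are given for this list. Among 15 tested cyclins, kinases and kinase inhibitors, the p57 gene Cdkn1c (log2 1.48) and the pocket protein gene Rbl2 (0.36) rose and the p27 gene Cdkn1b fell (-0.63) after FLASH. After standard irradiation Ccnd1 (1.04), Cdk6 (0.39) and Rbl2 (0.34) rose and Cdkn1b fell (-0.71). These and the next lists are to be read against the 3.26% of all genes called higher and 4.47% lower after FLASH, and 3.36% and 4.52% after standard irradiation. Among 14 tested paralogs of the members, Cdkn1c rose and Cdkn1b fell after FLASH, and Zmat2 (0.18) rose and Cdkn1b and Btg1 (-0.58) fell after standard irradiation. Of 12 ATF4 and amino acid stress genes, with Atf4 itself among them and Sesn2 not, 0 rose and 1 fell in each beam. The gene that fell was that of the serine synthesis enzyme Phgdh (-1.48 after FLASH and -1.71 after standard irradiation). The list median was -0.42 after FLASH and -0.50 after standard irradiation. Of 14 immediate early genes, the class of rapidly induced transcripts to which Btg2 also belongs, 0 rose and 6 fell after FLASH and 3 after standard irradiation. They included Nr4a1 (-1.66), Egr1 (-1.10), Klf2 (-0.82) and Egr3 (-0.78) after FLASH, and Egr3 (-0.74), Klf2 (-0.52) and Zfp36 (-0.36) after standard irradiation.

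**Figure D4:**
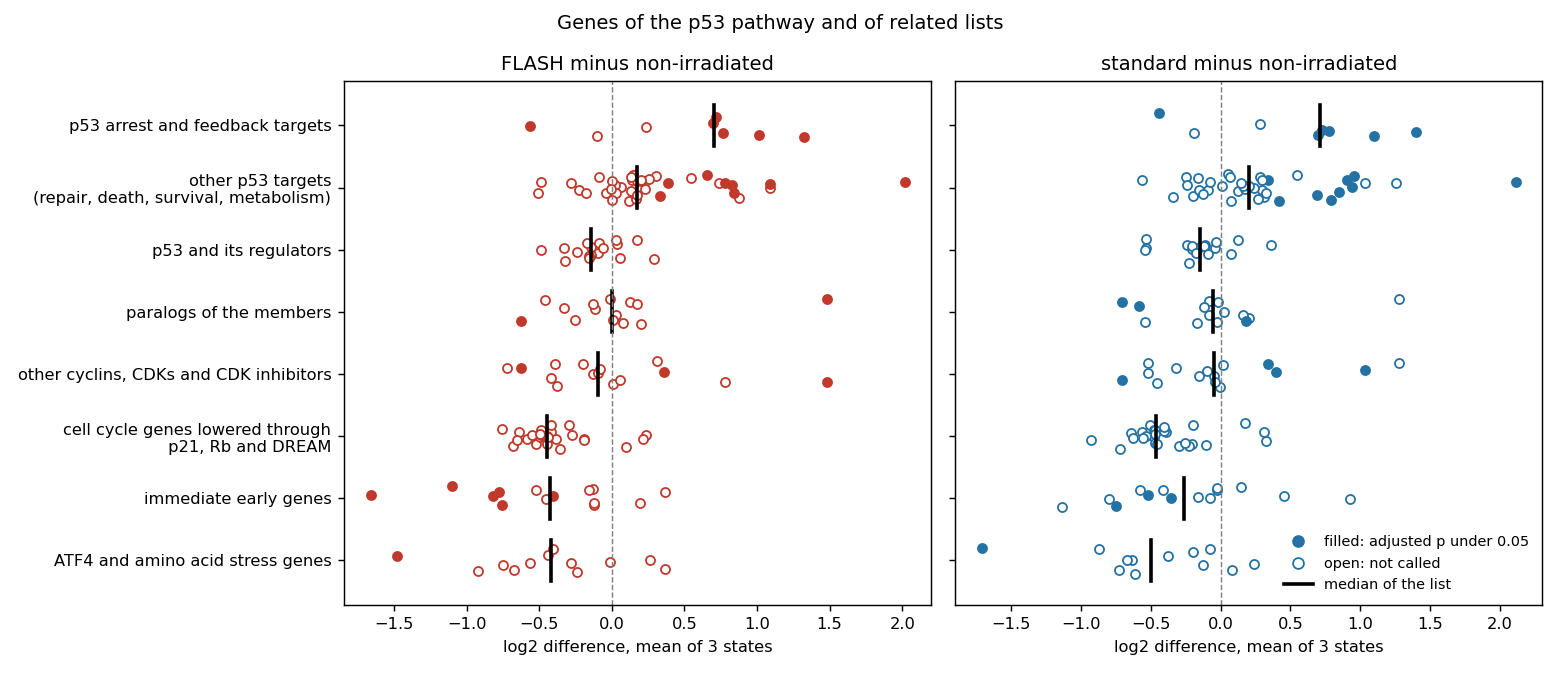
Log2 differences over the mean of the 3 states (horizontal axis) for the 8 genes and for 7 related lists, FLASH minus non-irradiated on the left and standard minus non-irradiated on the right; each point is a gene, filled where the adjusted p was under 0.05, and the black bar is the list median. The 8 genes have a median of 0.71 in both beams, the other p53 targets 0.17 and 0.20, and the cell cycle genes -0.44 and -0.46.

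The genes whose levels ran most like those of each member over the 27 libraries are given as a description; the libraries share the split between irradiated and non-irradiated cells, the states and the scaling. Cdkn1a was most like Qpctl (Pearson r = 0.93) and Lrpap1 (0.92), Ccng1 most like Mgmt (0.92), which repairs alkylated DNA, and Qpctl (0.92), and Zmat3 most like Mgmt (0.92) and Phlda3 (0.91). Mdm2 was most like Afp (0.88) and the serotonin receptor gene Htr2b (0.87), and Trp53inp1 most like Mgst1 (0.91) and the autophagy receptor gene Nbr1 (0.91). Sesn2 ran with Sqstm1 (0.84) and Ppp1r15a (0.83), and Ppm1d with the mitotic kinesin gene Kif11 (0.82) and Bcl7a (0.81). Btg2 ran with the monocyte receptor gene Ccr2 (0.80) and the MHC class II gene H2-Ab1 (0.77).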

How the data were processed

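RNA of 27 libraries was measured by sequencing. The deposited table holds a signal for each gene and library, TMM-scaled CPM made by the authors with kallisto 0.46.1 and edgeR 3.36.0 in R 4.0.5, per the submitters' processing notes. These notes name the human build GRCh38 for mouse samples; annotation and strandedness are not given in the sources used here. Recovered depths were 20.7 M to 25.8 M reads per library, but only 67.54% to 98.07% of the values were whole reads within 0.01 read, so no count test was used. Of 19070 entries, 1 without a symbol (at most 0.00799% of a library) was left out.

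The 13297 genes that reached 1 CPM in 3 or more libraries were tested on log2(CPM + 0.5) with limma 3.58.1 (R 4.3.3, statmod 1.5.0; intensity trend, robust moderation) in one model of 9 group means, in 18 comparisons. P-values were Benjamini-Hochberg adjusted over all tested genes within a comparison and called under 0.05. Folds are on the log2(CPM + 0.5) scale, which understates changes of low genes. The pipeline was tested on simulated data. The LPS and IL-4 axes use genes changed by at least 2 log2 units and called in non-irradiated M1 or M2 against M0; a library counted as at odds when it exceeded 0.5 on the axis of another state or stayed under 0.5 on its own. Named genes were all 8 members and Trp53; per list, up to 4 called genes a direction by size, or the one with the smallest p; and the 2 genes most correlated with each member, without predicted gene models. Members, lists and tests were chosen with earlier results of these data known. Promoter sequences are from RefSeq (GRCm38.p6). Alternatives were other pseudocounts, filters, scaling, moderation, fewer samples, a replicate block and leaving out libraries.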

Additional observations from a re-analysis of the deposited data

Results flagged for a closer look

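The Btg2 libraries of the beams lay apart in opposite directions in 2 states, although Btg2 was called in neither (limma adjusted p = 1 in both). In M0 the log2 difference, FLASH minus standard, was 0.3071, with 21.4, 22.6 and 25.0 CPM in FLASH libraries, against 14.6, 20.2 and 21.4 CPM in standard libraries, so that the groups are parted by a gap between 21.43 and 21.40 CPM, the 21.43 CPM being from the library labelled FLASH M0 replicate 1; the 95% interval was -0.12 to 0.74. This M0 gap is narrower than 1 read, which is 0.0395 CPM in FLASH M0 replicate 1 and 0.0487 CPM in standard M0 replicate 3. In M1 the log2 difference, FLASH minus standard, was -0.6411. FLASH libraries had 15.3, 17.8 and 19.2 CPM there, against 33.7, 22.6 and 26.9 CPM in standard libraries. The libraries labelled FLASH M0 replicate 1, FLASH M1 replicate 1 and standard M1 replicate 1 are at odds with their labels. A test of the difference between these differences, added after the values were seen, gave -0.95 (95% interval -1.55 to -0.34, limma adjusted p = 1), with 0 genes called. Such a separation was found for 4.6% of all genes upwards in M0 and 2.77% downwards in M1. Without the libraries at odds the M0 difference was 0.36 and the M1 difference -0.41.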

How the results depend on the processing

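The counts over the mean of the states (6 of 8 in each beam) stayed within 1.5 times under all alternatives run, and no member's difference from the non-irradiated libraries reversed while it was called. Pseudocounts of 0.1 and 1, no filter, median-of-ratios scaling and a variance fit without trend changed no call of a member against non-irradiated cells. Within states the counts moved more. A fit of only the groups compared gave 1 for FLASH M1, 0 for FLASH M2, 1 for standard M1 and 0 for standard M2, against 3, 2, 3 and 3; there the spread comes from 6 libraries. In standard M0 this fit gained calls for Sesn2 and Trp53inp1 (limma adjusted p = 0.0339 and 0.0403). Replicates 2 and 3 alone gave 5 for FLASH M0 and 1 for FLASH M1, against 3 and 3. Without the 5 libraries that go against their state, an alternative chosen after seeing the data, gave 5 for FLASH M0 and 4 for FLASH M2, with 5.32% and 3.31% of all genes called, against 2.11% and 1.1% with all libraries. Leaving out 1 library gave 6 to 6 for the FLASH mean, 5 to 6 for the standard mean, 2 to 4 for FLASH M0, 2 to 4 for FLASH M1, 2 to 3 for FLASH M2, 2 to 4 for standard M0, 2 to 3 for standard M1 and M2, 0 to 2 for M1 against M0, 1 to 2 for M2 against M0, and 0 to 0 for FLASH against standard and for the interactions. The cause was not tested.

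The replicate block gave 1 call for M1 against M0 in place of 2, Trp53inp1 being lost (limma adjusted p = 0.0539), and the Zmat3 call in FLASH M1 was lost (adjusted p = 0.0717); 63 of 64 member differences from non-irradiated cells kept their side. The labels give same-numbered libraries of all groups a shared suffix, whose meaning is not stated. Over 108 same-numbered pairs the correlation of deviations ran from -0.852 to 0.783 (median -0.10, 9 over 0.1), and 0 of 27 libraries correlated best with their own number. All 5 libraries at odds are replicate 1, so this check cannot tell pairing from their departure from the labels. The 4 groups with no library at odds showed no pairing by number. Their 18 same-numbered pairs ran from -0.204 to 0.096 (median -0.065), against a median of 0.03 for different numbers. With 3 libraries a group, state-level differences such as that of Mdm2 in M0 lie near what the spread can resolve.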
